A study of Macaca fascicularis with 6 samples.

Results

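Matricellular glycoproteins are secreted proteins that sit in the extracellular matrix and tune how cells attach, migrate and respond to growth factors, more than they build its fibers. The group described here was fixed by name as 9 genes, *CILP*, *CILP2*, *COMP*, *THBS1*, *TNC*, *POSTN*, *SPARC*, *FN1* and *TNXB*. The gene symbols of both count matrices, which list 13950 and 14020 genes, hold 7 of these 9, and *COMP* and *TNXB* were not analysed here. The values come from single-cell RNA-seq by TAS-Seq, in which cDNA on beads is tailed with a terminator-assisted reaction before whole-transcriptome amplification. The 5 conditions were undifferentiated cynomolgus monkey iPS cells (cyiPSC), cartilage organoids differentiated from them (pre-transplant cyiPS-Cart), such organoids taken out of knee chondral defects 4 months after allogeneic grafting (post-transplant cyiPS-Cart), healthy joint cartilage left intact (cyAC) and fibrous tissue grown in defects with no graft (cyFT).

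The iPS cells and the organoids carry EGFP, driven by a constitutive promoter in a single cell line. The labels give wild type as the genotype of the post-transplant, cyAC and cyFT samples, although the organoids came from the EGFP line, and an age of 3 to 4 years. Live cells were sorted from digested tissue, transplanted sites of a monkey were combined, and how many monkeys a library holds is not given in the sources used here. Each condition is 1 sample, so no difference below has a replicate check, no test was run, and intervals are 95% intervals that cover counting error only. The reads were counted without molecular identifiers as far as the methods tell, so they are not independent molecules.

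The cartilage intermediate layer proteins *CILP* and *CILP2* are large glycoproteins of cartilage matrix, and CILP binds TGF-β and IGF1. THBS1 is a thrombospondin that can activate latent TGF-β, TNC is a tenascin of developing and wounded tissue, and POSTN is a fasciclin-domain protein of periosteum, perichondrium and scars that binds both TNC and fibronectin. SPARC binds collagens and takes part in procollagen handling, and FN1, fibronectin, is the provisional matrix protein to which integrins attach.

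Reads per sample ranged from 11087496 in cyFT to 415457877 in cyiPSC, and median reads per cell from 27499.5 in cyFT to 143075 in cyiPSC. cyiPSC (2500 cells) and pre-transplant cyiPS-Cart (3527 cells) shared 1 library and 1 matrix. A second matrix holds 320 cells each of pre-transplant, post-transplant, cyAC and cyFT, and 300 of its pre-transplant cells are also in the larger matrix. cyAC and cyFT shared a library, whereas post-transplant cells had their own, so that library and condition cannot be told apart for the post-transplant sample. Different libraries had at most 4 cell numbers in common. Summed chondrocyte markers stood between 46925 CPM in cyFT and 94152 CPM in cyAC among the 4 tissue samples, against 134 CPM in cyiPSC. The 8 listed fibroblast markers, none of them at 0, summed to 78653.5 CPM in post-transplant cyiPS-Cart, 52282 CPM in cyFT, 23642 CPM in pre-transplant cyiPS-Cart and 16154.5 CPM in cyAC. Members of this list did not all follow the sum. *COL1A2* and *COL3A1* were higher in post-transplant cyiPS-Cart than in cyFT, whereas *COL1A1*, *PDGFRA*, *PDGFRB* and *THY1* were lower. *PDGFRB* stood at 14.3 against 105 CPM and *THY1* at 94.1 against 284 CPM, and *COL1A1* was read in 16.9% against 63.4% of cells. The 5 listed pluripotency markers summed to 360 CPM in cyiPSC and to at most 7.71 CPM elsewhere. The 7 listed macrophage markers summed to 698 CPM in cyFT, against 3.89 to 19.5 CPM in the other 3 tissue samples, with none of them at 0 in cyFT. Listed endothelial markers reached no more than 15.7 CPM in any tissue sample, with *KDR* at 0 in cyFT.

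The summed expression of each gene is given as CPM, the gene's reads per 1000000 reads of all listed genes in a sample. *CILP* stood at 0.111 CPM in cyiPSC (46 reads), 27.8 and 25.7 CPM in the larger and smaller pre-transplant sets, 734 CPM in post-transplant cyiPS-Cart, 691 CPM in cyAC and 347 CPM in cyFT. The transplanted organoids and the intact cartilage were thus the high samples, and the organoids in culture were the low tissue sample. The order of the high pair was not stable, since cyAC stood at 795 CPM with each of its 0s raised to 6 reads, 1 below the lowest *CILP* count of its library. A *CILP* read was found in 58.4% of post-transplant cells (interval 52.8% to 63.9%), 35.9% of cyAC cells, 30.6% of cyFT cells and 15.3% of pre-transplant cells. In cyAC the reads were concentrated, since the 5% of cells with the most *CILP* reads held 54.6% of them, against 35.0% in post-transplant cells.

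*CILP2*, the paralog of *CILP*, was a weakly counted gene throughout. Its level was 0.440 CPM in cyiPSC, 27.2 and 28.6 CPM in these pre-transplant sets, 92.9 CPM in post-transplant cyiPS-Cart, 119 CPM in cyAC and 56.7 CPM in cyFT. cyAC stood 1.28-fold above post-transplant cyiPS-Cart, with counting intervals of 113 to 125 CPM and 89.5 to 96.5 CPM. These intervals do not cover the spread between samples or libraries. At equal depth, with cells thinned to 12191 reads and the shallower ones left out (32 of cyFT, 12 of cyAC, 1 of pre-transplant and 0 of post-transplant), the share of cells with a *CILP2* read was 50.3% in cyAC, 37.8% in post-transplant, 24.7% in cyFT and 22.9% in pre-transplant cells, which places cyFT and pre-transplant cells close together. Without thinning these shares were 65.9%, 59.4%, 37.8% and 45.3%, so the order of the last pair turned with depth.

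*THBS1* was the member with the least difference between iPS cells and organoids. It was counted at 597 CPM in cyiPSC, 1446 and 1448 CPM in the pre-transplant sets, 1175 CPM in post-transplant cyiPS-Cart, 2106 CPM in cyAC and 799.5 CPM in cyFT. Intact cartilage was the highest sample and the fibrous tissue the lowest of the tissue samples. The share of cells with a read followed another order, with 97.2% in pre-transplant, 88.8% in post-transplant, 66.3% in cyAC and 34.1% in cyFT. Among the cells with a read, the median was 1844 CPM in cyAC and 977 CPM in cyFT, against 991 CPM before and 943 CPM after transplantation in the organoids, so cyAC had fewer cells with a read and a higher CPM in those cells than the organoids. The lowest *THBS1* count that the correction left was 9 reads in the library of cyAC and cyFT, 8 in that of post-transplant cells and 1 in that of pre-transplant cells, and a higher floor lowers such a share and raises such a median by construction, the more so in shallower cells.

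*TNC* set cyAC apart from the other tissue samples. Its level was 7.43 CPM in cyiPSC, 2543 and 2412 CPM in the pre-transplant sets, 2718 CPM in post-transplant cyiPS-Cart, 771 CPM in cyAC and 2522 CPM in cyFT. The organoids and the fibrous tissue stood within 1.13-fold of each other, and intact cartilage was the low sample. Yet the spread over cells differed. The median cell held 2368 CPM in pre-transplant, 2320 CPM in post-transplant, 0 in cyAC and 1508 CPM in cyFT, and the 10% of cells with the most began at 9843 CPM in cyFT, against 4430 and 5242 CPM in pre- and post-transplant cells. Reads of *TNC* were present in 95.3% and 94.1% of organoid cells before and after transplantation, 47.8% of cyAC cells and 64.1% of cyFT cells.

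*POSTN* had the widest range over the tissue samples, 604-fold from the highest to the lowest. It was counted at 7.05 CPM in cyiPSC, 2230 and 2248 CPM in the pre-transplant sets, 355 CPM in post-transplant cyiPS-Cart, 3.72 CPM in cyAC (44 reads) and 37.97 CPM in cyFT (421 reads). Organoids in culture were high, and both cyAC and cyFT were low. Its reads were present in 88.4% of pre-transplant, 28.4% of post-transplant, 3.75% of cyAC and 6.25% of cyFT cells. The low levels rested on few cells: 6 of the 20 positive cells of cyFT held at least 90% of the reads, and 1 of the 12 positive cells of cyAC held 56.8%. Without its highest cell cyFT stood at 27.5 CPM and cyAC at 1.61 CPM.

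*SPARC* and *FN1* were counted in nearly all cells of every tissue sample. *SPARC* stood at 76.9 CPM in cyiPSC, 33274 and 33478 CPM in the pre-transplant sets, 59193 CPM in post-transplant cyiPS-Cart, 49048 CPM in cyAC and 42327 CPM in cyFT. *FN1* stood at 149 CPM in cyiPSC, 11962 and 11485.5 CPM in the pre-transplant sets, 13207 CPM in post-transplant cyiPS-Cart, 11086 CPM in cyAC and 12159.6 CPM in cyFT. The 4 tissue samples thus lay within 1.77-fold for *SPARC* and 1.19-fold for *FN1*. The median cell of cyFT held 27807 CPM of *SPARC*, against 45983 CPM in cyAC, a wider gap than that of the sums.

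**Figure D1:**
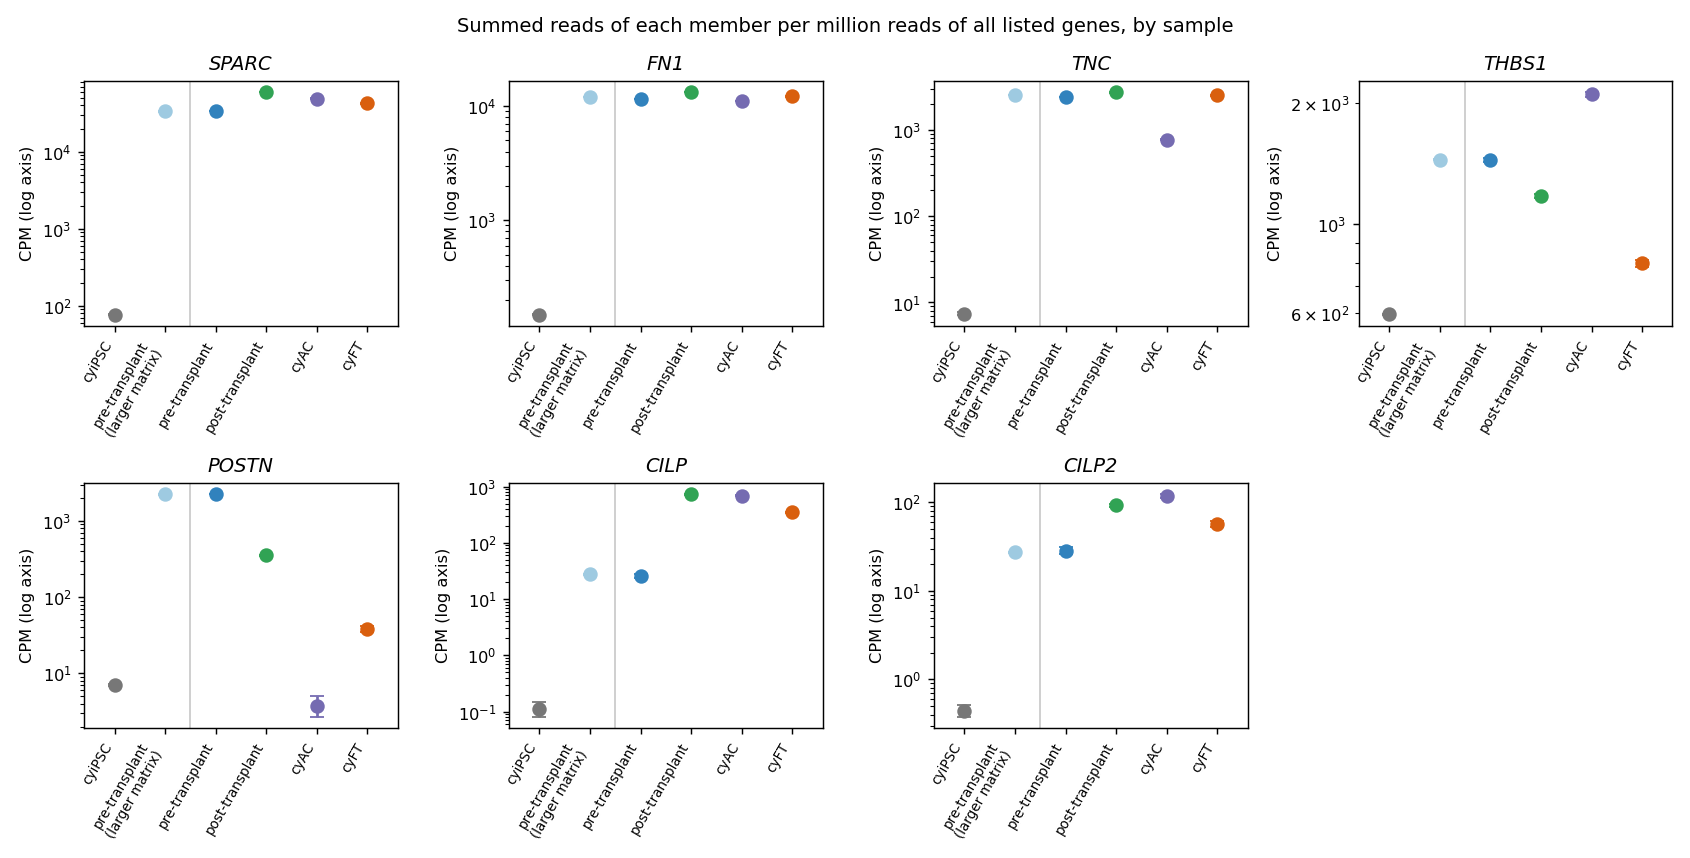
Summed level of each of the 7 genes in CPM (log scale) by sample, with bars for the 95% counting interval. *POSTN* runs from 2248 CPM in pre-transplant cyiPS-Cart to 3.72 CPM in cyAC, whereas *FN1* stays between 11086 and 13207 CPM in the 4 tissue samples.

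**Figure D2:**
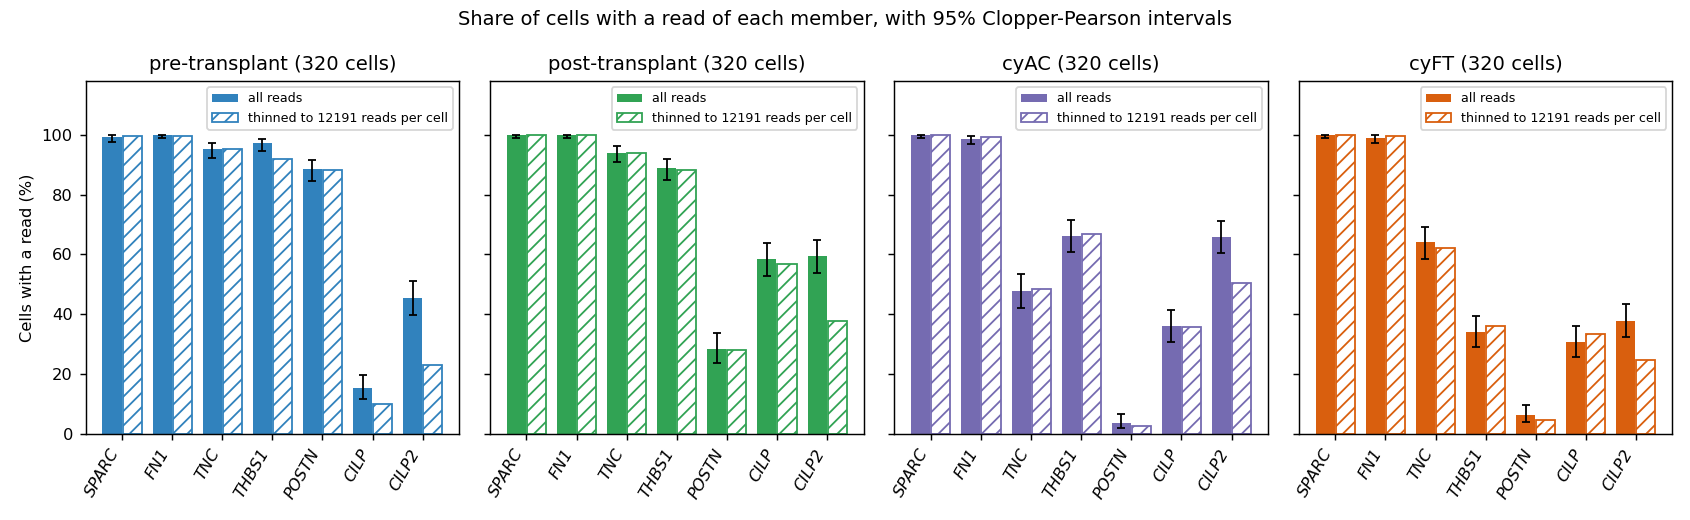
Percent of cells with at least 1 read of each gene by sample, as counted and after thinning to equal depth without the cells below it. The share for *CILP2* changes most with depth, and that for *TNC* stays near 95% in organoids and lower in cyAC and cyFT.

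The first comparison asks what the genes did when iPS cells became organoids. All 7 were past 2-fold higher in pre-transplant cyiPS-Cart than in cyiPSC and 0 were lower, where 18.4% and 38.5% of 4684 tested genes were higher and lower by 2-fold or more. With edgeR's TMM factors in place of library totals the background split was 30.7% and 17.0%, with the 7 still higher. Differences are given as log2 ratios of CPM + 1. They were 8.74 for *SPARC*, 8.24 for *TNC*, 8.11 for *POSTN*, 6.32 for *FN1*, 4.70 for *CILP*, 4.29 for *CILP2* and 1.27 for *THBS1*. The median over the 7 was 6.32, beside −0.63 over all tested genes. *CILP* and *CILP2* did not pass the filter on low values, which asks for 50 CPM and reads in 25% of cells in either sample.

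The size of these ratios depends on low counts that the authors' background correction set to 0. In the library of cyiPSC and pre-transplant cells the lowest count above 0 was 318 reads for *SPARC* and 20 reads for *TNC* and *POSTN*, against 1 read for the other 4 genes. *SPARC* was 433-fold higher in pre-transplant cells as counted. If each of the 2463 cyiPSCs at 0 is given 317 reads, it is 17.0-fold higher. The same bound leaves *TNC* 21.4-fold and *POSTN* 18.9-fold higher, in place of 342-fold and 316-fold. The log2 ratios of *CILP* and *CILP2*, with cyiPSC near 0, fell to 1.90 and 1.83 with 10 CPM added in place of 1.

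Few cyiPSCs held the *SPARC* reads that were counted. Of the 37 cyiPSCs with a read, 20 also had reads of *COL1A1* alone, 4 of both *COL1A1* and *COL2A1*, 5 of *COL2A1* alone and 8 of neither. The 40 cyiPSCs with *COL1A1* alone had a median of 311145 reads per cell, against 142032.5 in the 2450 cells with neither collagen, and were sequenced in the library of the organoid cells. *THBS1* stood at 1994 CPM in these 40 cells and 557 CPM in the 2450. Whether some of these cells hold reads of organoid cells was not tested.

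The next comparison asks how the genes differed after transplantation. *CILP* was 28.6-fold higher after transplantation than before (interval 26.2 to 31.1) and *CILP2* 3.25-fold higher, while *POSTN* was 6.34-fold lower (interval 6.20 to 6.47). Without the highest 5% of cells of each sample the log2 ratio went from 4.78 to 6.05 for *CILP* and from −2.66 to −3.40 for *POSTN*. Other measures moved with this pair of samples, after against before transplantation. The median mitochondrial share was 1.68% against 5.24%, and the median cell had 2594.5 genes on 80335.5 reads against 3765 genes on 58413.5 reads. Summed fibroblast markers stood at 78653.5 against 23642 CPM, with *COL3A1* at 34538.5 against 11792 CPM. The collagens *COL1A1*, *COL1A2* and *COL3A1* of that list were higher. *PDGFRA* stood at 6.23 against 12.96 CPM, *PDGFRB* at 14.3 against 20.5 CPM and *THY1* at 94.1 against 95.5 CPM. The 4 listed cycling markers stood at 12.3 against 78.4 CPM. The part of these measures in the differences was not tested. These 2 higher and 1 lower of 7 stand beside 8.16% higher and 22.1% lower of 3421 tested genes, or 11.6% and 14.3% with TMM factors, where *SPARC* joined and the members counted 3 higher and 1 lower. *SPARC* differed by 0.82 on the log2 scale, *FN1* by 0.20, *TNC* by 0.17 and *THBS1* by −0.30, none of them past 2-fold. The median over the 7 was 0.20, beside −0.39 over all tested genes.

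Cells with reads of *COL2A1* but not of *COL1A1* made up most of both organoid samples, with 242 of 320 cells before and 265 of 320 after transplantation. Within this class *CILP* stood at 853 CPM after and 33.2 CPM before, 25.7-fold apart, and *CILP2* was 2.99-fold higher. *POSTN* stood at 215 CPM after and 2013 CPM before, 9.36-fold apart, or 5.53-fold with each 0 after transplantation raised to 18 reads. *TNC* was at 2531 and 2509 CPM in the same cells. The differences were therefore also present between cells put in the same collagen class at these unlike floors, where 8.67% of 3378 genes were higher and 21.9% lower.

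Part of the *POSTN* left after transplantation came from a handful of cells. The 7 post-transplant cells with *COL1A1* alone stood at 4101 CPM of *POSTN*, or 2278 CPM without the highest of them, and held 30.1% of its reads, while they held 2.61% of the reads of all genes. In pre-transplant cyiPS-Cart the 19 such cells stood at 3797 CPM and held 8.86% of the *POSTN* reads. The highest 5% of post-transplant cells held 60.3% of all *POSTN* reads.

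The comparison of the defect's fibrous tissue with intact cartilage put members on both sides. *TNC* was 3.27-fold higher in cyFT than in cyAC (interval 3.19 to 3.35) and *POSTN* 10.2-fold higher (7.47 to 14.3), the latter below the filter on low values and carried by few cells. *THBS1* was 2.63-fold lower in cyFT (2.57 to 2.70) and *CILP2* 2.09-fold lower (1.90 to 2.30). *CILP*, at a log2 ratio of −0.99, fell just short of 2-fold, *SPARC* was at −0.21 and *FN1* at 0.13. The 2 higher and 2 lower of 7 stand beside 7.06% higher and 3.73% lower of 3270 tested genes, or 5.03% and 5.62% with TMM factors, where *CILP* joined and the members counted 2 higher and 3 lower. The median over the 7 was −0.21, beside 0.11 over all tested genes.

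Some of these calls turned with the setting. *POSTN* dropped to a log2 ratio of 0.46 without the highest 5% of cells of each sample, and *CILP2* to −0.95 with 10 CPM added in place of 1. *CILP* reached −1.18 under another normalization, which put it past 2-fold. In this library the lowest count above 0 was 9 reads for *TNC* and *THBS1* and 7 for *CILP*. With each 0 in the lower sample raised to 1 read below that, *TNC* was 2.85-fold higher and *THBS1* 2.21-fold lower in cyFT.

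The transplanted organoids were also compared with intact cartilage and with the fibrous tissue, with library and condition confounded. Compared with cyAC, *POSTN* was 95.4-fold higher in post-transplant cyiPS-Cart (interval 71.0 to 131) and *TNC* 3.53-fold higher (3.45 to 3.604). The *POSTN* value leans on the low level in cyAC, and its log2 ratio of 6.24 was 4.73 with 10 CPM added in place of 1 and 7.45 without the highest 5% of cells of each sample. These 2 higher and 0 lower of 7 stand beside 10.8% higher and 17.8% lower of 3235 tested genes. *CILP* was at a log2 ratio of 0.09, which turned to −0.12 with the zeros of cyAC raised, *FN1* at 0.25, *SPARC* at 0.27, *CILP2* at −0.35 and *THBS1* at −0.84, with a median of 0.25 over the 7 and −0.13 over all tested genes.

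Compared with cyFT, *POSTN* was 9.34-fold higher in post-transplant cyiPS-Cart (interval 8.48 to 10.3) and *CILP* 2.11-fold higher (2.04 to 2.19). The log2 ratio of *POSTN*, 3.19, was 2.30 with the mean of per-cell CPM and 6.99 without the highest 5% of cells of each sample. These 2 higher and 0 lower of 7 stand beside 7.85% higher and 21.4% lower of 3389 tested genes, or 15.3% and 12.8% with TMM factors, where *CILP2* joined and the members counted 3 higher and 0 lower. *CILP2* was at a log2 ratio of 0.70, *THBS1* at 0.55, *SPARC* at 0.48, *FN1* at 0.12 and *TNC* at 0.11, the last turning to −0.37 with the mean of per-cell CPM, with a median of 0.55 over the 7 and −0.29 over all tested genes. *CILP* was 1.57-fold higher once each 0 of cyFT was raised to 6 reads. These comparisons share the post-transplant, cyAC and cyFT cells and are not independent of each other.

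**Figure D3:**
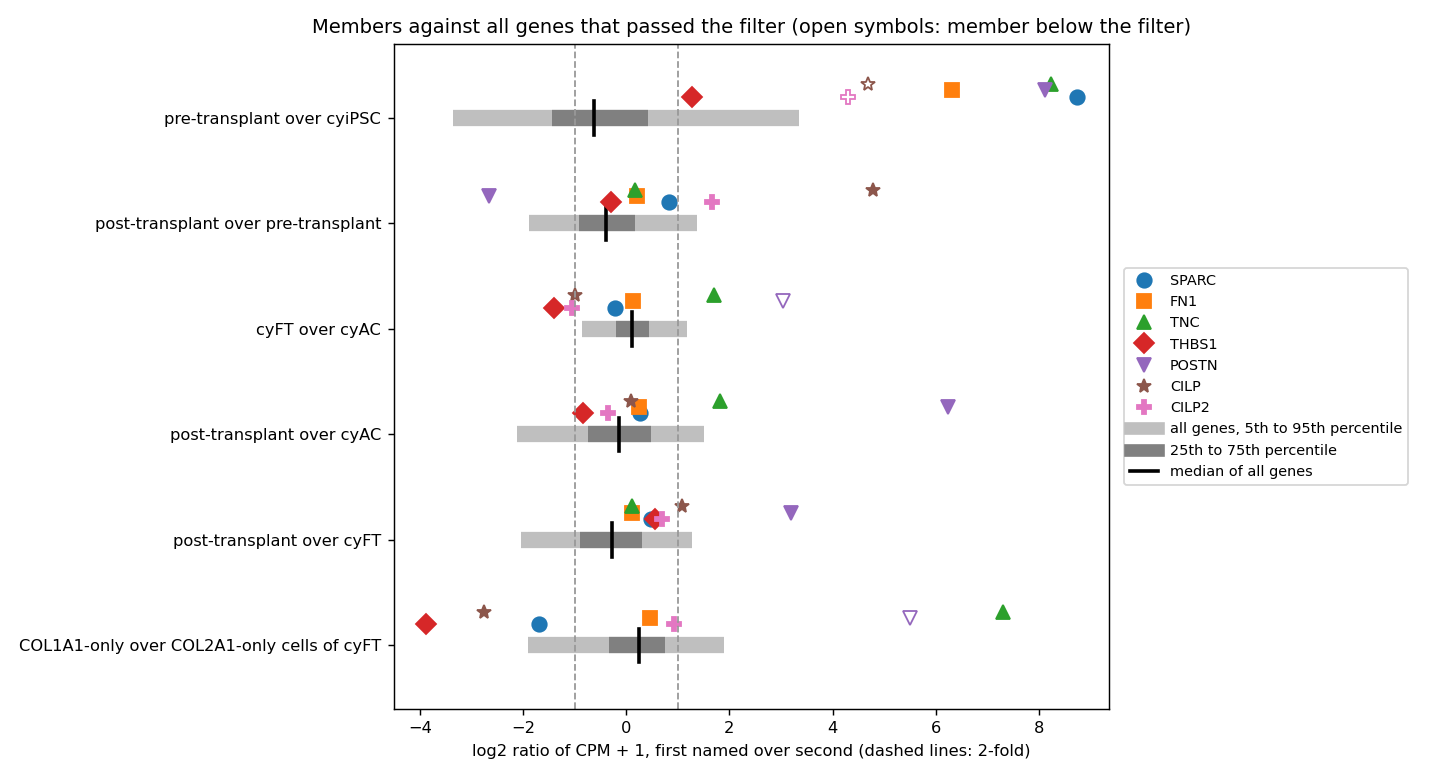
Log2 ratio of CPM + 1 of each gene in the 6 comparisons, with open symbols for genes that did not pass the filter on low values. The bars give percentiles of all tested genes with a line at their median, and dashed lines mark 2-fold. Counting intervals are not drawn. *POSTN* lies at 8.11, −2.66, 3.05, 6.24, 3.19 and 5.50 in the order of the text, while *FN1* lies within 2-fold in all but the comparison of organoids with iPS cells.

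The cells of cyFT were then split by reads of the fibrous collagen *COL1A1* and the cartilage collagen *COL2A1*. Of 320 cells, 170 had *COL1A1* alone (53.1%), 84 had *COL2A1* alone (26.3%), 33 had both and 33 had neither. In cyAC these numbers were 16, 276, 3 and 25. The lowest count above 0 in the library of cyAC and cyFT was 76 reads of *COL1A1* and 211 reads of *COL2A1*. The median depth was 21830 reads in cells with *COL1A1* alone and 47802.5 reads in cells with *COL2A1* alone. Chondrocyte markers, *COL2A1* among them, summed to 8791 CPM in the former and 94183 CPM in the latter, and fibroblast markers, *COL1A1* among them, to 92229 and 9812 CPM. Superficial chondrocyte markers summed to 15309.5 CPM with *COL1A1* alone, 8524 CPM with both, 6071 CPM with *COL2A1* alone and 40132.5 CPM with neither.

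*TNC* stood at 5532 CPM in the cells of cyFT with *COL1A1* alone, 3246 CPM in those with both, 33.9 CPM in those with *COL2A1* alone and 114 CPM in those with neither, the last falling to 51.4 CPM without 1 cell. The first class was 163-fold above the third (interval 139 to 193), and 85.7% of the *TNC* reads came from it, against 39.0% of the reads of all genes. A read was present in 95.3% of the cells with *COL1A1* alone and 11.9% of those with *COL2A1* alone, and at equal depth in 95.1% and 11.9%. With each 0 of the lower class raised to 8 reads, *TNC* remained 33.3-fold higher.

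*THBS1* was arranged the other way, at 117.8 CPM in cells with *COL1A1* alone, 462 CPM in those with both, 1743 CPM in those with *COL2A1* alone and 12.4 CPM in those with neither, where 1 cell held all the reads. It was 14.8-fold lower in the first class than in the third (interval 13.5 to 16.2), and 4.45-fold lower with zeros raised. Of its reads, 88.1% came from cells with *COL2A1* alone, and 86.9% of these cells had a read, against 12.9% of the cells with *COL1A1* alone.

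*CILP* stood at 88.7, 388, 608 and 261 CPM in the same order of classes, 6.85-fold lower in cells with *COL1A1* alone than in those with *COL2A1* alone. Its bound with zeros raised was 2.04-fold. The level with neither collagen rested on 3 of 33 cells and was 140.0 CPM without the highest of them. *CILP2* was arranged differently, at 57.5 CPM with *COL1A1* alone, 212 CPM with both, 29.7 CPM with *COL2A1* alone and 3.54 CPM with neither, which makes the cells with both collagens the high class. These 33 cells held 38.6% of the *CILP2* reads and 10.4% of all reads. The cells with *COL1A1* alone stood 1.94-fold above those with *COL2A1* alone for *CILP2*, with shares of 22.2% and 25% at equal depth.

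*SPARC* stood at 21658, 53098, 69631 and 2253 CPM in the same order of classes, 3.22-fold lower with *COL1A1* alone than with *COL2A1* alone. *FN1* was spread over all classes, at 13989.6, 8140.0, 10215 and 16950 CPM. Its sum was highest with neither collagen, but the median cell of that class held 5566 CPM, the least of the classes, against 9136, 7589 and 9159 CPM in the other 3, and 1 cell held 22.3% of its reads. *POSTN* stood at 94.7 CPM with *COL1A1* alone and at most 3.48 CPM in the other classes, but only 13 of the 170 cells had a read, and its log2 ratio of 5.50 was 2.20 without the highest 5% of cells of each class. Of the 7 members, 2 were past 2-fold higher and 3 lower in cells with *COL1A1* alone, beside 16.6% higher and 11.4% lower of 3557 tested genes, or 10.1% and 16.1% with TMM factors, where the members counted the same. *POSTN*, 1 of the 2, did not pass the filter on low values. The median over the 7 was 0.45, beside 0.25 over all tested genes.

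**Figure D4:**
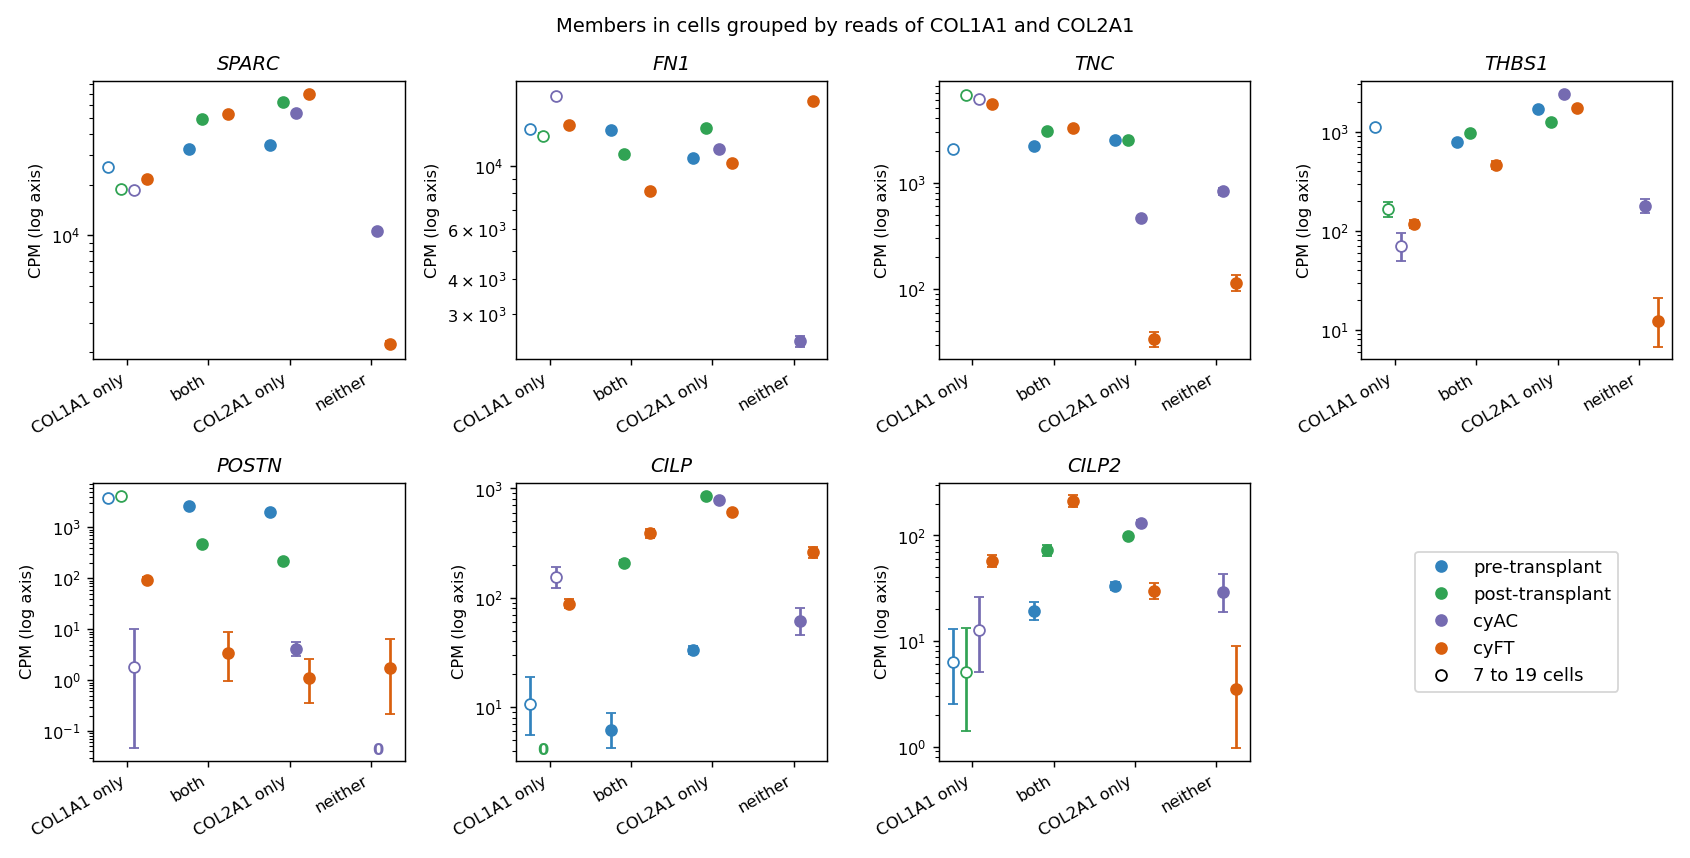
Summed level in CPM (log scale) of each gene in cells of each sample with reads of *COL1A1* alone, both collagens, *COL2A1* alone or neither, with bars for the 95% counting interval. In cyFT *TNC* falls from 5532 to 33.9 CPM between the first and the third class while *THBS1* goes from 117.8 to 1743 CPM.

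*TNC* and *THBS1* divided the cells of cyFT almost as the collagens did. Reads of *TNC* without *THBS1* were found in 163 cells (50.9%), of which 140 had *COL1A1* alone and 1 had *COL2A1* alone. Reads of *THBS1* without *TNC* were found in 67 cells (20.9%), of which 64 had *COL2A1* alone and 0 had *COL1A1* alone. Both genes were read in 42 cells and neither in 48, of which 28 had no read of either collagen. The median depth of these 4 groups was 21451, 48657, 37828.5 and 24551 reads.

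**Figure D5:**
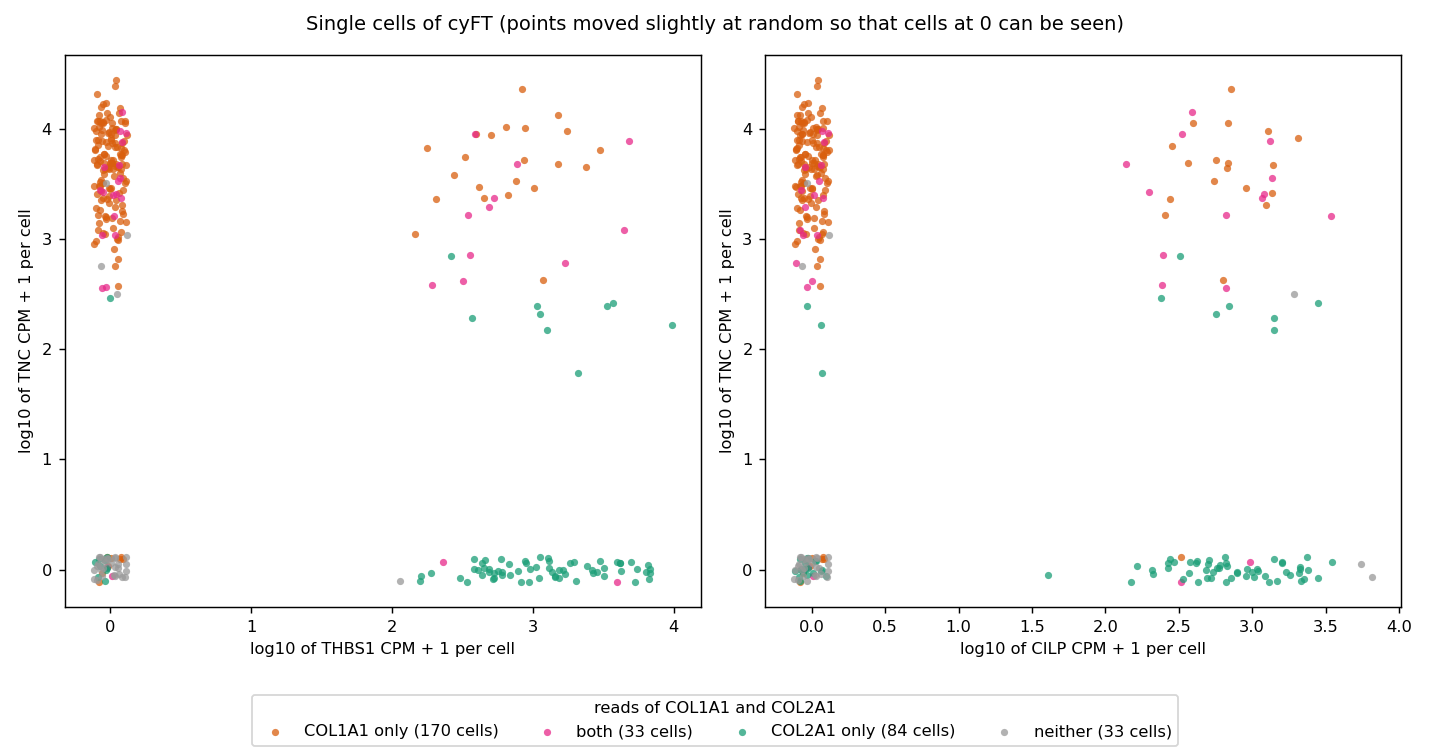
Each point is 1 of the 320 cells of cyFT, placed by log10 of CPM + 1 of *TNC* against *THBS1* (left) and *CILP* (right), and colored by its reads of *COL1A1* and *COL2A1*. Most cells with *COL1A1* alone lie high on *TNC* at 0 for *THBS1*, and most cells with *COL2A1* alone lie along the floor of *TNC*. The empty band lies between 0 and the lowest counts that the authors' correction left.

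Across the 320 cells of cyFT, Spearman's rho of the per-cell CPM was −0.40 between *TNC* and *THBS1*, 0.58 between *THBS1* and *SPARC*, 0.49 between *CILP* and *THBS1* and 0.48 between *CILP* and *SPARC*. Across the 320 cells of cyAC the highest rho was 0.55, between *CILP* and *FN1*, and that of *TNC* and *THBS1* was −0.22. These describe cells of 1 library each that differ in depth, and they share the zeros of the correction. In post-transplant cyiPS-Cart no pair with *TNC* or *THBS1* exceeded 0.22 in size, and *TNC* and *THBS1* stood at 0.02.

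The difference of *TNC* and *THBS1* between the collagen classes varied over the samples. In cyAC, the 16 cells with *COL1A1* alone stood at 6146 CPM of *TNC*, against 463 CPM in the 276 cells with *COL2A1* alone, and at 69.4 against 2392 CPM of *THBS1*, the 69.4 CPM resting on 2 cells and falling to 18.6 CPM without the higher. These 16 cells held 36.9% of the *TNC* reads of cyAC and 4.63% of all its reads. In pre-transplant cyiPS-Cart of the larger matrix, 254 cells with *COL1A1* alone and 2588 with *COL2A1* alone stood at 2300 and 2619 CPM of *TNC* and at 947 and 1625 CPM of *THBS1*, so that both genes were lower with *COL1A1* alone. In post-transplant cyiPS-Cart, *TNC* was at 6660 CPM in 7 cells and 2531 CPM in 265, and *THBS1* at 166 and 1242 CPM, with 1 of the 7 cells holding its reads. *THBS1* was thus lower with *COL1A1* alone in all 4 tissue conditions, by a varying amount, while *TNC* was higher in all but the pre-transplant organoids. Cells with *COL2A1* alone thus carried *TNC* above 2500 CPM in the organoids, at 463 CPM in cyAC and at 33.9 CPM in cyFT.

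Between the cells with *COL2A1* alone of cyFT and cyAC, which came from the same library, *TNC* was 13.7-fold lower in cyFT (interval 11.6 to 16.2) and *CILP2* 4.45-fold lower (3.72 to 5.36). *TNC* was 2.79-fold lower with each 0 in these cells of cyFT raised to 8 reads. *TNC* was thus lower in cyFT here and higher in it over the whole samples. *POSTN* stood at 1.12 and 4.17 CPM, on 5 and 43 reads, and 1 cell of cyAC held 58.1% of the latter. Without that cell cyAC stood at 1.75 CPM, and 4.76% of these cells had a *POSTN* read in cyFT against 3.99% in cyAC. *CILP* stood at 608 and 778 CPM, *THBS1* at 1743 and 2392 CPM, *SPARC* at 69631 and 53763 CPM and *FN1* at 10215 and 11523 CPM in cyFT and cyAC. In this pairing 6.29% of 3146 genes were past 2-fold higher and 5.21% lower. *CILP* and *THBS1*, which were 1.99-fold and 2.63-fold lower over whole cyFT, were 1.28-fold and 1.37-fold lower between cells of this class.

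Cells with other markers were present in cyFT. Reads of at least 3 macrophage markers were found in 17 of its 320 cells, 15 of them with reads of neither collagen, and in 1 of 320 cyAC cells. *TNC* had 0 reads in these 17 cells, at a median depth of 46169 reads, against reads in 67.7% of the other 303 cells at 26473 reads. By counting error alone this allows a share of up to 17.6% at a limit of 3 counts, or 19.5% by the exact interval. Counts under 9 reads are not seen in this library. *THBS1* and *CILP2* were each read in 3 of the 17 cells, and *CILP* and *POSTN* each in 1. *SPARC* was read in 17 of 17 at 7362 CPM, against 45183 CPM in the other cells, and *FN1* in 17 of 17 at 3786 CPM, against 12844 CPM.

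Relatives of the members, taken from lists of named genes, were counted between cyFT and cyAC, where 7.06% of all tested genes were higher and 3.73% lower. Of the 3 listed thrombospondin relatives, *THBS2* (203 against 68.7 CPM, log2 ratio 1.55) and *THBS3* (475 against 190 CPM, 1.31) were past 2-fold higher in cyFT, opposite in direction to *THBS1*, and *THBS4* was at −0.18. Of 5 listed tenascin and fibronectin relatives 3 passed the filter and 1 was higher, *FNDC1*, a fibronectin type III domain protein, at 489 against 50.6 CPM (3.25). *MFGE8* was at 0.09 and *EDIL3* at −0.07. Of 8 listed relatives of periostin and SPARC 4 passed, with *TGFBI*, the closest relative of *POSTN*, at 1043 against 326 CPM (1.67), *SMOC1* lower at 115 against 312 CPM (−1.44) and *SMOC2* at −0.86.

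In the CCN family, matricellular proteins that include connective tissue growth factor, 3 of 6 passed and 2 were lower in cyFT, beside 3.73% of all tested genes. These were *CCN1* at 1548 against 3755 CPM (−1.28) and *CCN6* at 30.4 against 79.2 CPM (−1.35), and *CCN2* was at −0.68. *CCN3* had the largest ratio of the family and the opposite direction, at 117.5 against 12.01 CPM (3.19) with reads in 20.9% of the cells of cyFT, but did not pass the filter and was chosen after its values were seen. Of 8 listed matrilins and other cartilage matrix proteins 5 passed, with *MATN3* (−2.04) and *CHAD* (−1.04) lower and *FMOD* at −0.43. Of 14 fibulins, fibrillins and elastic fiber proteins 8 passed. *MFAP5* at 2.66 and *ELN*, elastin, at 2.32 were higher, *FBLN1*, a fibulin chosen after its values were seen, was lower at 33.4 against 95.6 CPM (−1.49), and *LTBP1* was at −0.20. *MFAP4*, at 48.8 against 49.0 CPM, did not pass the filter, nor did *FBLN5* (2.07) and *LTBP2* (−2.29), which were past 2-fold.

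The fibrillar collagens of fibrous tissue had 5 of 8 higher in cyFT, beside 7.06% of all tested genes higher and 3.73% lower, with *COL1A1* at 3.93 and *COL1A2* at 3.22, and *COL3A1* at 0.98. Of 22 listed receptors of the members 14 passed, 2 higher and 1 lower. *CD44*, a hyaluronan receptor, stood at 519 against 138 CPM (1.91) and the syndecan *SDC4* at 210 against 608 CPM (−1.53), while *SDC2* was at −0.78 and *ANXA2* at 0.50. Of 14 genes of TGF-β signaling 13 passed, 2 higher and 1 lower, with the ligand *TGFB3* at 1.17 and *SMAD4* at 1.013, and *SKIL* at −0.14.

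Between the collagen classes of cyFT, where all genes stood further apart (16.6% higher and 11.4% lower, against 7.06% and 3.73% for cyFT over cyAC), the same lists were counted. Higher in cells with *COL1A1* alone were 8 of 8 fibrillar collagens, which include *COL1A1* itself, 7 of 9 elastic fiber proteins and 3 of 4 relatives of periostin and SPARC. *FNDC1* stood at 1228 CPM there, with reads in 58.8% of the cells. *TGFBI* was at a log2 ratio of 3.85, *THBS2* at 3.34 and *TGFB3* at 3.04. In the CCN family 3 of 4 were lower and 1 higher, with *CCN2* at −3.44 and *CCN1* at −2.29. Receptors counted 5 higher and 3 lower of 14, TGF-β signaling 4 higher and 3 lower of 13, and matrilins and other cartilage matrix proteins 1 higher and 2 lower of 5.

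The lists were also counted between post- and pre-transplant cyiPS-Cart, where 8.16% of all tested genes were higher and 22.1% lower. Fibrillar collagens had 2 of 7 higher, with *COL1A2* at 2.74, and matrilins and other cartilage matrix proteins 3 of 7 higher and 2 lower, with *CHAD* at 2.01 and *MATN3* at −1.32. Elastic fiber proteins had 4 of 10 lower and 0 higher, with *MFAP4* at −2.78. Receptors had 1 of 13 higher and 5 lower, with *CD44* at −3.76 and *ANXA2* at −1.98. Thrombospondin relatives had 1 of 3 higher and 1 lower, *THBS3* at 1.03 and *THBS2* at −1.57. Tenascin and fibronectin relatives had 1 of 3 higher, *MFGE8* at 1.13, and 1 lower, *FNDC1* at −1.04. Relatives of periostin and SPARC had 1 of 4 higher, *SMOC1* at 1.31, and 1 lower, *SMOC2* at −1.29. The CCN family had 1 of 3 higher, *CCN6* at 2.15, and 1 lower, *CCN2* at −1.29. TGF-β signaling had 4 of 12 higher and 3 lower.

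The genes whose level was most like that of each member were sought among 5291 genes over 10 groups of cells, namely each pair of sample and collagen class with at least 20 cells in the matrix of 4 samples, which leaves out cyiPSC and the larger pre-transplant set. The measure was Pearson's r of log2(CPM + 1), given as a description, since the groups share 3 libraries. *TNC* was most like *ZNF521* (0.95), the fibrillin *FBN1* (0.95) and the collagen *COL5A2* (0.94). *THBS1* was most like the sulfotransferase *CHST1* (0.97), the cartilage collagen *COL11A1* (0.96) and *CCN1* (0.96). *CILP* was most like *ZNF385B* (0.95), *MLLT3* (0.90) and the proteoglycan *DCN* (0.89), and *CILP2* like the proteoglycan *BGN*, *GABBR1* and the collagen *COL16A1* (0.93 each).

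*POSTN* was most like *CAP2* (0.98), *NME2* (0.98) and *MPC1* (0.96). *SPARC* was most like *RSL24D1* (0.99), the latent TGF-β binding protein *LTBP1* (0.96) and *PRDX4* (0.96), and *FN1* like *FMR1* (0.99), *NAT1* (0.98) and *USP48* (0.96).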

How the data were processed

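Read counts per gene and cell were used as deposited. Per the methods, the authors matched reads with Bowtie2 to the Ensembl cDNA and ncRNA sequences of Macaca_fascicularis_6.0 (the submitters' processing notes also name GRCh38, Bowtie2 2.4.2, cutadapt 3.4 and R 3.6.3), separated pooled samples by hashtag, set low mixture components of a gene's counts to 0 as diffused background, removed cells above a mitochondrial limit and, in the matrix of 4 samples, reduced each sample to 320 cells. How reads shared by related transcripts were assigned is not given in the sources used here. Cells were taken to conditions by the prefixes of their names, through the labels and the code supplied with the study. Libraries of hashtag reads were not used here.

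The members and gene lists were chosen with earlier results of these data known. Reads were summed per sample and divided by all reads. Sums have exact Poisson intervals, shares exact Clopper-Pearson intervals and ratios exact conditional intervals, all at 95%. A difference was called at 2-fold on the log2(CPM + 1) scale. The background was all genes with at least 50 CPM and reads in at least 25% of cells in either sample. All members were named, with the 3 genes most like each and, per list, the 2 with the highest CPM and the 2 with the largest ratio of cyFT over cyAC, except that 1 such gene is not reported here. Cells were thinned to 12191 reads (4 samples) or 30967 reads (larger matrix). Scrublet marked 14 cyiPSCs, 0 cells of the larger pre-transplant set, where the caller is taken to have failed, and 26, 8, 2 and 2 cells of pre-transplant, post-transplant, cyAC and cyFT, which were kept. Symbols of 94.9% of the genes were found in a RefSeq table, used for names only. Python 3.11.15, scipy 1.17.1, scanpy 1.11.5, edgeR 4.0.16 and DESeq2 1.42.0 were used, the last 2 for scaling factors of the counts only. The ratio step was tested on simulated counts. The alternatives were other scalings, pseudocounts, filters, cells and class definitions, and, chosen after seeing the data, zeros raised to 1 read below a gene's lowest count.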

Additional observations from a re-analysis of the deposited data

Results flagged for a closer look

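The ratio of cells with *COL1A1* alone to cells with *COL2A1* alone went opposite ways in cyFT and pre-transplant cyiPS-Cart for 2 members. For *CILP2* its log2 value was 0.93 in cyFT (170 and 84 cells) and −1.55 in pre-transplant cyiPS-Cart of the larger matrix (254 and 2588 cells). For *TNC* it was 7.31 in cyFT and −0.19 in pre-transplant cyiPS-Cart. Both samples are single and come from different libraries, so the difference was not tested. In cyAC the values were −3.27 for *CILP2* and 3.73 for *TNC*, with 16 cells in the smaller class, of which 2 held the 7 *CILP2* reads. In post-transplant cyiPS-Cart they were −4.03 and 1.40, with 7 cells in the smaller class, of which 1 held its 4 *CILP2* reads.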

How the results depend on the processing

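Of 42 pairs of a member and a comparison, 34 kept their side of 2-fold under all 10 to 12 alternatives per comparison that could move a member, and none of the pairs past 2-fold changed direction. The count of members past 2-fold between post-transplant cyiPS-Cart and cyFT was 2, rose to 4 without the highest 5% of cells of each gene, where *CILP2* and *THBS1* joined, and fell to 1 with zeros raised, where *CILP* left. The other 61 of 63 such counts stayed within 1.5 times. Besides the changes given for cyFT over cyAC, *SPARC* reached 1.05 after over before transplantation under TMM or DESeq2 factors, and *CILP2* reached 1.08 between the collagen classes of cyFT with the mean of per-cell CPM. Among pairs within 2-fold, the direction turned for *FN1*, cyFT over cyAC (−0.06 to 0.29), *CILP*, post-transplant over cyAC (−0.12 to 0.53), and *TNC*, post-transplant over cyFT (−0.37 to 0.45). TMM factors moved the median of all genes by 0.87, 0.27, −0.21, 0.15, 0.42 and −0.35 (log2) in the order in which the comparisons were described. In the comparison with cyiPSC, leaving out the highest 5% of cells raised *SPARC* to 14.97, *TNC* to 11.20 and *POSTN* to 10.84, and *THBS1* reached 1.99 with DESeq2 factors. Between the collagen classes of cyFT leaving out these cells took *CILP* from −2.76 to −3.81 and *THBS1* from −3.88 to −4.79. Of 126 alternative shares, 81 stayed inside the counting interval. Requiring 1000 CPM of a collagen could not change the classes of cyFT, where each counted collagen lay above it, and is no check, and the filters on low genes change the background alone, so these were left out of the tallies. Raising zeros could not move a member whose lowest count was 1 read. No paired analysis was possible because each condition is 1 sample. Shares of sparsely counted genes such as *CILP2* are limited by depth, and levels below a gene's lowest count cannot be seen.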
